A study of Arabidopsis thaliana with 12 samples.

Results

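The late response to dexamethasone (Dex) was measured in Arabidopsis thaliana inflorescences on 4 of the 12 arrays of the series, those taken 72 h after treatment. The 4 arrays were chosen by their labels, replicates 1 to 4 of 72 h. The plants carried the GATA-type transcription factor HANABA TARANU (HAN) fused to the glucocorticoid receptor and driven by the 35S promoter (35S:HAN-GR) in the Landsberg erecta background. The samples were inflorescences with buds of stages 1 to 9, from plants given 10 µM Dex or a mock solution, and every plant carried the fusion. Each array set RNA of Dex-treated plants against RNA of mock-treated plants on the same glass, and the labels call the arrays biological replicates. Dex RNA carried the dye Cy5 on replicates 1 and 4 and the dye Cy3 on replicates 2 and 3. The 35S promoter is active in most plant cells, so the fusion acts beyond the cells in which HAN is normally expressed. No Dex-treated plants without the fusion are among the samples, so a response to Dex itself and a response to the fusion cannot be told apart.

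Without the steroid, the receptor part keeps such a fusion out of the nucleus, and Dex releases it. HAN is expressed at the boundaries between the meristem and young floral organs, and plants that lack it form flowers with fewer and fused organs. A sample taken days after Dex holds direct targets, genes downstream of them and any change in which organs and cell types have formed, and in bulk tissue fewer cells of a type and less RNA per cell cannot be told apart. HAN itself is not analysed here.

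The values are log2 ratios, centred so that the median of each array is 0. They are read as Dex over mock, the likely direction, although neither the labels nor the file headers state it. Replicates of opposite labelled dye correlated at 0.00 to 0.38 across features, against 0.29 and 0.48 for the pairs of the same dye, so the ratios run with the treatment label more than with the dye. With values at the limits kept, replicates of opposite dye correlated at -0.75 to -0.49. At 72 h the limit values of controls and blanks mostly had the sign of the dye too. Replicate 1 had 383 at the upper and 13 at the lower limit, and replicate 2 had 2 and 398. Correlations between arrays do not tell Dex over mock from mock over Dex, so the direction is not settled. With the sign turned, each rise below becomes a fall and each fall a rise. Ratios give no level, so the labelled tissue could not be checked against marker genes. Each array had a value for 21905 to 22385 of 26090 gene probes, and 9.50% to 17.2% of these sat at a limit, a ratio of 100 or of 0.01, and were set missing as bounds. A gene was tested when at least 3 arrays had a value, which left 18552 features, and 7323 features were not tested. The 72 h arrays varied more than the earlier ones, with a median SD over 4 arrays of 0.21 at 4 h, 0.19 at 12 h and 0.34 at 72 h. Replicate 3 was the widest, with a median absolute ratio of 0.50, while the others had 0.23 to 0.28.

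At 72 h, 384 of the 18552 features differed between Dex-treated and mock-treated plants (2.07%), with 156 higher (0.841%) and 228 lower (1.23%) in Dex-treated plants, in the limma fit to the 4 arrays with a term for dye and a Benjamini-Hochberg adjusted p under 0.05. The adjusted p-values of all 384 lay between 0.0392 and 0.0499, since many features shared nearly the same adjusted value, and they are not repeated for each gene below. At an unadjusted p under 0.05 there were 3556 features (19.2%). The smallest called change was 1.05 on the log2 scale, the median rise was 1.73 and the median fall was -1.64. The calls are close to the threshold, and several other ways of fitting the same arrays gave 0 calls. A second fit, to all 12 arrays with 1 variance per time point, called 1646 of 18125 features at 72 h (9.08%). It called 330 of the 367 changed features that it could test. This second fit takes the dye from the labels, which are in doubt for replicates 1 and 3 of 4 h, as described below. For the 72 h mean it was not run with those labels changed. "Rose" and "fell" below are kept for the fit to the 72 h arrays, and genes that passed only in the second fit are named as such. Of the 384, 192 are probes without a gene name (2.52% of those tested), 192 are named genes (1.75%) and 37 of these have a symbol. Without replicate 1 the fit called 186 of the 381 calls that it could test again, and without replicate 4 it called 243 of 382.

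The largest changes are given first for named genes with ratios of 1 sign on all 4 arrays, a limit that leaves out NAI1, described with the bHLH factors. AT2G38380 rose most, with log2 ratios of 4.01, 4.66, 2.62 and 4.28 on replicates 1 to 4. The fitted mean was 3.89 ± 0.37 (SE, n = 4 arrays), a 14.9-fold rise. Lowest among these genes was AT2G30540, at -4.20, -4.19, -3.31 and -4.61, and its fitted mean was -4.08 ± 0.21. Both lie far from 0 on every array. AT4G23670 followed among the falls with -3.79, -4.75, -3.24 and -3.74. AT1G68230 had -3.08, -4.10, -3.15 and -4.0. These loci carry no symbol in the gene table used, and no role is given to them here. The plot of the 15 largest rises and falls by array shows the spread of each gene.

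**Figure D1:**
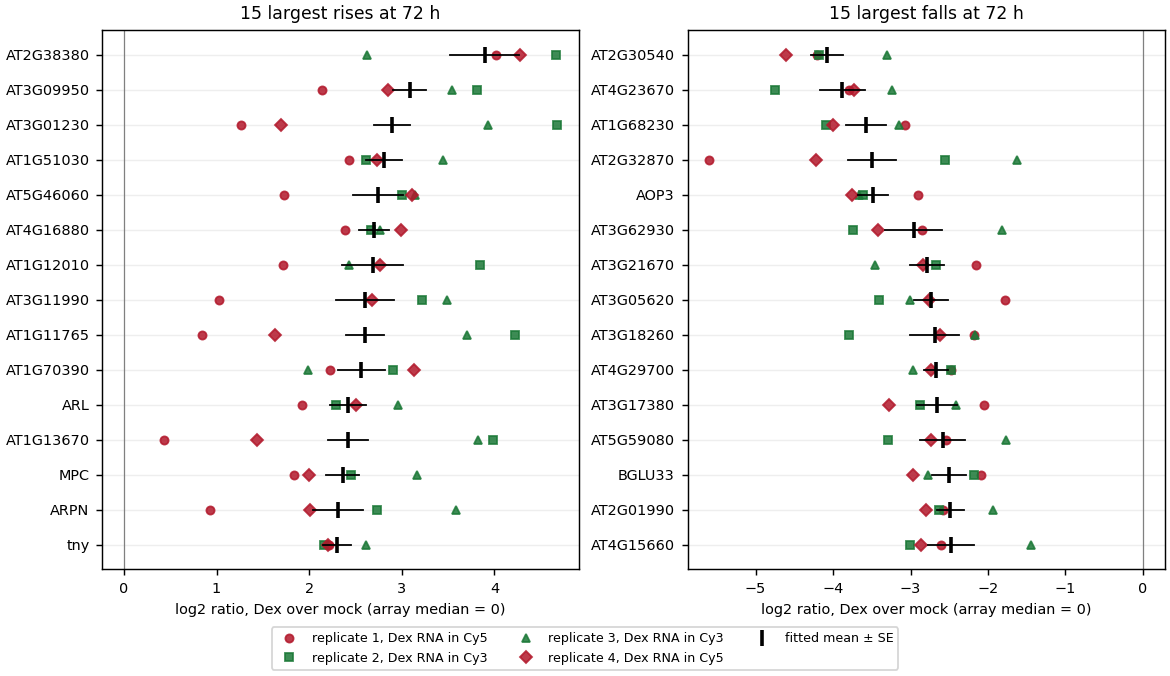
Log2 ratio of Dex over mock at 72 h on each of the 4 arrays for the 15 largest rises (left) and the 15 largest falls (right) among called named genes with ratios of 1 sign on all 4 arrays, which leaves out NAI1. Red symbols are arrays with Dex RNA in Cy5, green symbols arrays with Dex RNA in Cy3, and black bars the fitted mean with its SE. The green points of AT3G01230, AT1G11765 and AT1G13670 lie far above their red points.

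The named rises with symbols included genes of organ growth and of reproductive tissue. ARGOS-LIKE (ARL), which promotes organ growth through cell expansion, had ratios of 1.93, 2.29, 2.96 and 2.51 on replicates 1 to 4, all above 0, and its fitted rise was 2.42 ± 0.20 (SE, n = 4). TINY (tny), an AP2/ERF transcription factor whose excess limits cell growth, had 2.22, 2.16, 2.62 and 2.20, the narrowest range among the 15 largest rises. Its fitted mean was 2.30 ± 0.15, a 4.93-fold rise. MPC, a gene known for its maternal expression in seeds, had 1.84, 2.45, 3.16 and 2.0, with replicate 3 highest. Plantacyanin (ARPN), a small copper protein of the transmitting tract and anther, had 0.93, 2.73, 3.58 and 2.01. Replicate 1 of ARPN was the lowest and replicate 3 the highest, and all 4 were above 0. LUP5, an oxidosqualene cyclase of the family that makes triterpenes, had 2.28, 2.54, 1.46 and 2.57 and a fitted mean of 2.21 ± 0.23.

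Falls with a symbol included genes of several metabolic enzymes. AOP3, a dioxygenase that makes hydroxyalkyl glucosinolates, the sulphur-rich defence compounds of the cabbage family, had -2.90, -3.61, -3.67 and -3.75 and a fitted mean of -3.48 ± 0.19 (SE, n = 4). All 4 arrays were far below 0, with replicate 1 closest to it. BGLU33, a beta-glucosidase, had -2.09, -2.18, -2.77 and -2.96. CHAT, which acetylates a leaf alcohol to a green leaf volatile, had -2.04, -1.56, -2.01 and -1.78. ICL, isocitrate lyase of the glyoxylate cycle, had -1.48, -1.71, -2.53 and -2.10 and a fitted mean of -1.96 ± 0.22. REM22, a B3-domain factor of the reproductive meristem family, had -1.05, -1.30, -1.28 and -1.28. Replicates 2 to 4 nearly coincide for this gene.

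The genes of each family were then counted, 63 lists with 701 tested loci in all. Of these loci 12 rose and 17 fell, beside 0.841% and 1.23% of all features. At these shares most short lists would hold no call, and 44 of the 63 held none. No gene of the lists on floral organ development rose or fell, which at such list sizes says little about them. In the list on the meristem, its boundaries and petal initiation, 0 of 14 tested members passed, of 16 named, and the list median was 0.06 on the log2 scale, against 0.00 over all features. RABBIT EARS (RBE), a zinc-finger repressor needed for petals, had ratios of 0.88, 1.01, 1.46 and 1.17 and an adjusted p of 0.0557 in limma. It passed in the fit to 12 arrays. JACKDAW (JKD), a zinc-finger factor best known from the root, had -0.55, -0.97, -0.79 and -0.58 and also passed only in that fit. All 4 values of RBE were above 0 and all 4 of JKD below it. CLV3, the peptide signal that limits the stem cell domain, had -0.13, -3.76 and 0.78 on replicates 1 to 3 and no usable value on replicate 4.

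The organ polarity and growth list had 0 of 31 tested members that passed, with a median of 0.05. In the fit to 12 arrays 2 of 30 were higher and 2 lower, beside 4.21% and 4.87% of all features. YABBY3 (YAB3), a factor of the lower side of lateral organs, had -1.43, -0.63, -0.70 and -1.12 and was lower in that fit. INNER NO OUTER (INO), a YABBY factor of the outer integument of the ovule, had -1.12, -0.87, -0.57 and -0.80 and was lower in that fit too. ALCATRAZ (ALC), a bHLH factor of fruit opening, had 0.97, 0.75, 1.35 and 1.07 and was higher in it. All 4 ratios of each of these 3 genes lay on one side of 0. SHI, a factor of style and leaf growth, had 0.77, 0.41, 0.51 and 0.82. The carpel and ovule list had 0 of 5 tested members that passed, of 6 named.

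Genes of the anther had ratios below 0 on most arrays. In the anther and tapetum list, 0 of 7 tested members passed, and the median was -0.63. All 4 arrays were below 0 for 5 of these 7 genes, against 16.3% of the 17349 features with 4 values, and for 0 of 7 were all 4 above 0, against 16.0%. AMS, a bHLH factor of the tapetum, the tissue that feeds developing pollen, had -0.63, -0.82, -0.89 and -0.37. EMS1, a receptor kinase that sets how many tapetal cells form, had -0.72, -0.24, -1.09 and -0.50. ATA27, a tapetal beta-glucosidase, had -0.57, -0.69, -1.15 and -0.21. AMS, EMS1 and ATA27 were lower in the fit to 12 arrays, where 3 of 7 passed, beside 4.87% of all features that were lower. The anther gene SPL, which starts sporogenous tissue, had -0.14, -0.12, -0.08 and -0.05, all within 0.1 of each other and just below 0.

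Pollen genes did not share a direction. Of 23 tested pollen genes 0 passed, and the median was -0.13. Of the 21 with 4 values, 6 were above 0 on all arrays and 6 below, against 16.0% and 16.3% of all features. AT59, a pectate lyase of pollen, had 0.22, 3.34, 2.19 and 0.98, from just above 0 on replicate 1 to far above it on replicate 2. PLIM2a, an actin-bundling LIM protein of pollen, had 0.55, 1.93, 1.42 and 1.15. CHX19, a cation/proton exchanger, had -1.45, -1.10, -2.02 and -1.09, all below 0. AT59 and PLIM2a were higher and CHX19 lower in the fit to 12 arrays only.

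An egg cell gene rose. EC1.1, one of the small secreted proteins that the egg cell releases at fertilisation, had 1.01, 2.04, 2.19 and 1.89 on replicates 1 to 4, with replicate 1 lowest. The fitted mean was 1.78 ± 0.20 (SE, n = 4), a 3.44-fold rise. It was the 1 of 8 tested members of the egg cell and female gametophyte list that rose, of 12 named, and 0 fell. The median of the fitted means was -0.21, while the list medians by array were 0.74, -0.08, 0.27 and 0.51. DME, a DNA glycosylase of the central cell, had -0.27, -0.02, -0.67 and 0.04. EC1.5 had 1.31, 1.91 and 1.48 on replicates 1, 3 and 4, and its adjusted p was 0.0598. EC1.3 had 0.95, -0.65, 0.95 and 0.98, so that replicate 2 went against the others, and EC1.4 had 0.53, -3.12, 0.51 and 1.02, again with replicate 2 alone below 0. Genes of the EC1 family are similar in sequence, and cross-hybridisation between them was not tested. Of 14 tested meiosis genes, 0 passed.

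The AP2/ERF and bHLH lists each held 1 call. In the AP2/ERF list, tny was the 1 of 8 tested that rose, and its relative TINY2 had 0.54, 0.45, 0.81 and 0.68 and did not pass. In the bHLH list, NAI1 was the 1 of 20 that fell, and 0 rose. NAI1, a factor needed for endoplasmic reticulum bodies, had -5.46, -2.94 and -2.67 on replicates 1 to 3 and no usable value on replicate 4. Its dye-adjusted mean was -4.13 ± 0.19 over 3 arrays, and it did not pass in the fit to 12 arrays. Replicate 1, the only Cy5 array left, is fitted exactly by the dye term, so this SE leaves out its gap to the Cy3 arrays. The plain mean was -3.69, with an SD of 1.54. The lists of WRKY, bZIP and C2H2 zinc-finger factors had 0 of 6, 0 of 16 and 0 of 8 that passed. The flowering time list had 0 of 13.

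Hormone genes were mostly below the threshold. Of 13 tested auxin genes of the IAA, GH3 and YUC families, 0 passed, with a median of -0.31. IAA18, an Aux/IAA repressor of auxin signalling, had -0.92, -1.31, -0.87 and -0.97. IAA33, a divergent member of the family, had 0.61, 0.84, 1.05 and 0.93. IAA18 was lower and IAA33 higher in the fit to 12 arrays. YUC4, an enzyme of auxin synthesis active in young floral organs, had -0.19, -0.85, -0.76 and -0.50 and was lower in that fit. ARR15, a response regulator that dampens cytokinin signalling, had -1.37, -1.25, -0.30 and -1.48 and was lower in it as well, while 0 of 5 tested response regulators passed in the fit to the 72 h arrays. The jasmonate and salicylate list had 0 of 10. PUP18, a purine permease of the family that carries cytokinin bases, rose with 1.5, 2.69, 1.85 and 1.47 and a fitted mean of 1.88 ± 0.19 (SE, n = 4). It was the 1 of 3 tested purine permeases that rose.

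RALF-like peptides, small secreted signals that act through cell wall receptor kinases, had a median above 0. Of 9 tested members, 1 rose and 0 fell, and the median was 0.61. All 4 arrays were above 0 for 5 of the 8 with 4 values, against 16.0% of all features. By array the list medians were 0.36, 0.27, 1.73 and 0.22, so replicate 3, the widest array, stands apart. RALFL25 rose, with 0.94, 3.41, 3.50 and 0.81. The Cy3 replicates 2 and 3 were far above the Cy5 replicates 1 and 4, with a gap of -2.58 for Cy5 minus Cy3, and the fitted mean across the dyes was 2.16 ± 0.13. RALFL33 had 0.43, 0.34, 1.79 and 0.70 and was higher only in the fit to 12 arrays.

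Genes that loosen or remodel the cell wall changed in both directions. Of 16 tested expansins, proteins that let wall polymers slide during growth, 2 rose and 1 fell, and the median was 0.23. EXLA1 had 1.21, 1.56, 2.14 and 1.54. EXLA2 had 1.64, 1.27, 1.85 and 1.34. Both expansin-like A genes were above 1 on every array, with fitted means of 1.61 ± 0.17 and 1.52 ± 0.17 (SE, n = 4). The remaining gene of that subfamily, EXLA3, had 0.09, 1.67, 1.74 and 1.53 and passed only in the fit to 12 arrays. EXPA24, an alpha-expansin, fell, with -0.90, -1.24, -1.19 and -1.33. The EXLA genes are close relatives, and cross-hybridisation between them was not tested.

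The xyloglucan endotransglucosylases, which cut and rejoin the glycans that tether cellulose, had 2 rises and 1 fall among 5 tested. XTH19 had 1.35, 1.65, 2.02 and 1.28, with a fitted mean of 1.57 ± 0.14. XTH33 had 1.03, 1.5, 1.53 and 0.94, with a fitted mean of 1.25 ± 0.13. XTH32 fell, with -1.07, -1.24, -1.5 and -1.29. None of these 3 genes had an array on the other side of 0. Among 9 tested pectin enzymes, the pectin methylesterase gene PMEPCRF rose, with 1.07, 1.39, 1.6 and 1.13, and 0 fell. The GH9 endoglucanases had 0 of 13 that passed, the trichome birefringence-like genes 0 of 16 and the subtilases 0 of 7. GH9B8, an endoglucanase, had 1.40, 1.64, 0.86 and 0.97 and was higher in the fit to 12 arrays.

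**Figure D2:**
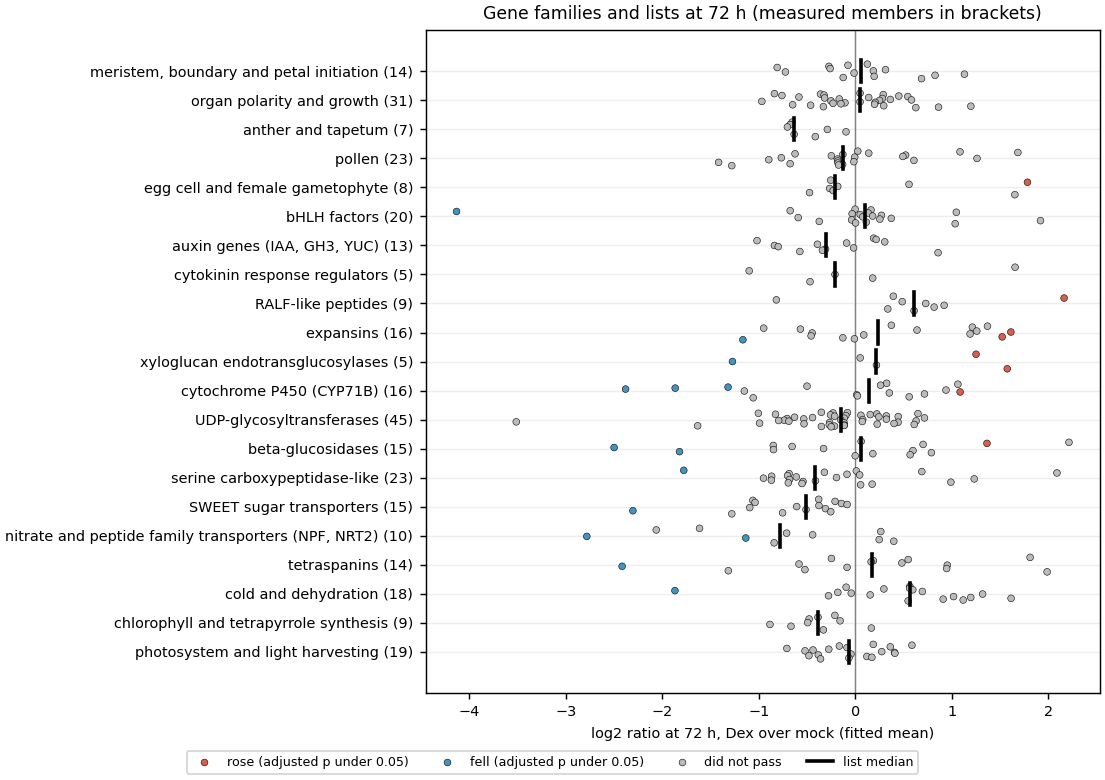
Fitted mean log2 ratio of Dex over mock at 72 h for the tested members of 21 gene lists, with 1 point per gene, the number of tested members in brackets and a black bar at the list median. Red points rose, blue points fell and grey points did not pass the limma test. The expansin and xyloglucan lists hold points of both colours, and all 15 SWEET and all 7 anther and tapetum points lie below 0.

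Among the CYP71B cytochromes P450, a plant family of oxidising enzymes, 3 of 16 tested fell and 1 rose, with a median of 0.14. CYP71B23 had -2.28, -2.60, -2.21 and -2.44. CYP71B22 had -1.72, -2.11, -1.65 and -2.0. CYP71B21 had -1.01, -1.46, -1.46 and -1.34. These 3 genes lie side by side on chromosome 3, and every array placed them in the order CYP71B23 lowest, then CYP71B22, then CYP71B21. CYP71B20, which precedes them in the gene order, had -0.46, -0.48, -0.59 and -0.47 and did not pass. CYP71B24, the next tested gene of the family, had 0.86, 0.82, 1.0 and 1.08, all above 0. CYP71B26 rose, with 1.31, 0.95, 0.87 and 1.22, and did not pass in the fit to 12 arrays. These genes are similar in sequence, and cross-hybridisation was not tested.

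Among 4587 pairs of neighbouring genes that were both tested, 158 held at least 1 called gene and 4 pairs held 2. All 4 pairs fell together. Among all neighbouring pairs 51.2% had the same sign, but most of these hold no call, so this share is no background for pairs of called genes. The pairs were CYP71B21 with CYP71B22, CYP71B22 with CYP71B23, BGLU33 with AT2G32870, and AT4G15660 with AT4G15670. CYP71B22 is thus counted in 2 of them, and cross-hybridisation within the pairs was not tested. AT2G32870, the neighbour of BGLU33, had -5.60, -2.56, -1.63 and -4.22, so that its fall was larger on the Cy5 replicates. AT4G15660 had -2.60, -3.01, -1.45 and -2.86.

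The beta-glucosidases, which release active compounds from sugar conjugates, had 1 rise and 2 falls among 15 tested. BGLU33 is given above, and BGLU44 fell with -1.23, -1.68, -2.41 and -1.98. BGLU45, which acts on the glucosides of lignin precursors, rose with 1.30, 1.18, 1.14 and 1.83. Its relative BGLU46 had 0.57, 0.78, 0.76 and 0.71 and did not pass. The list median was 0.06. Of the 13 with 4 values, 5 were above 0 on all arrays and 5 below, against 16.0% and 16.3% of all features.

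**Figure D3:**
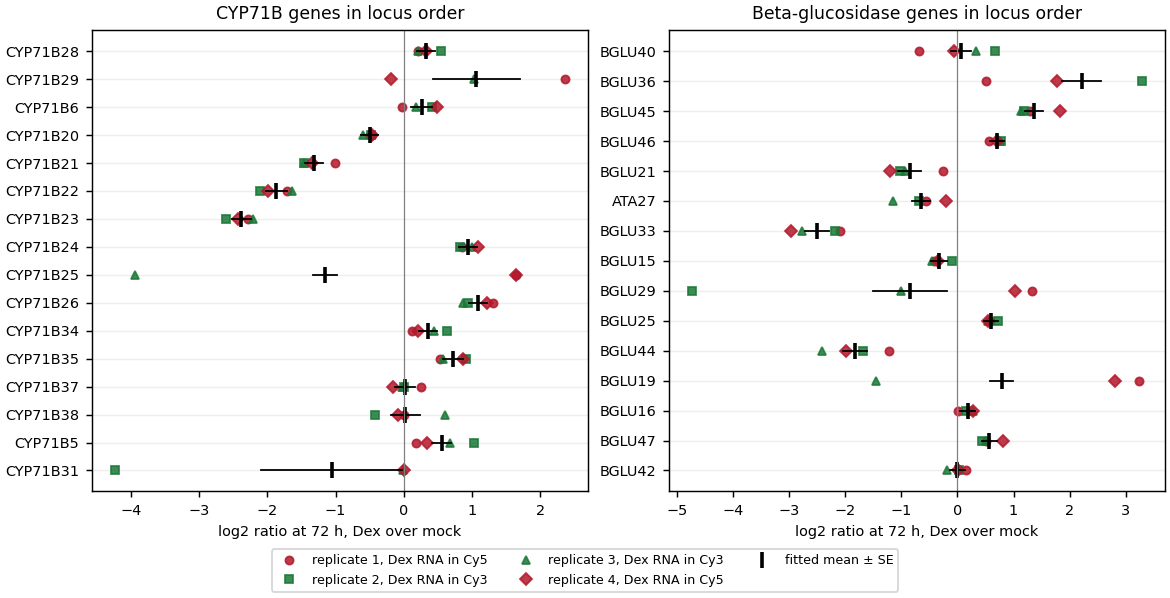
Log2 ratio of Dex over mock at 72 h on each array for the tested CYP71B genes (left) and beta-glucosidases (right), in the order of their locus numbers from top to bottom. Red symbols have Dex RNA in Cy5, green symbols in Cy3, and black bars are the fitted mean with its SE. The arrays nearly coincide for CYP71B20 to CYP71B24, which run from -0.50 through -2.38 to 0.94, and they scatter widely for CYP71B25 and BGLU29.

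UDP-glycosyltransferases, which attach sugars to hormones and other small molecules, had 0 of 45 tested members that passed, of 55 named, with a median of -0.15. All 4 arrays were below 0 for 15 of the 41 with 4 values, against 16.3% of all features. They were above 0 for 5, against 16.0%. IAGLU, which attaches glucose to auxin, had -1.20, -0.55, -1.10 and -1.12. UGT74F1, which acts on salicylate, had 0.49, 0.88, 0.70 and 0.79. Both passed only in the fit to 12 arrays. Of 23 tested serine carboxypeptidase-like genes, 1 fell and 0 rose. This gene, scpl31, had -1.72, -1.82, -1.74 and -1.83, the narrowest range among the named falls, and its fitted mean was -1.78 ± 0.13 (SE, n = 4). On the other side, scpl38 had 1.22, 3.09, 1.66 and 2.39, all above 1, and was higher only in the fit to 12 arrays.

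Glucosinolate genes other than AOP3 had smaller ratios. Of 6 tested, 1 fell and 0 rose. The related enzyme AOP1 had 0.34, 0.55, 1.13 and 0.35. GTR2, a glucosinolate transporter, had -0.53, -0.44, -1.08 and -1.32. UGT74B1, which glucosylates the core of the molecule, had -0.42, -0.97, -1.19 and -0.73. All 4 values of AOP1 were above 0 while those of GTR2, UGT74B1 and AOP3 were below it. Among 13 tested glutathione S-transferases, GSTU20 fell with -1.65, -1.26, -0.71 and -1.94. GSTF4 had lower ratios, -3.85, -4.35, -2.0 and -3.03, but an adjusted p of 0.0546, and it passed only in the fit to 12 arrays. The phenylpropanoid and flavonoid list had 0 of 12.

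The lists of sugar and nitrogen transporters had medians below 0. All 15 tested SWEET genes, which export sugars from cells, had a fitted mean below 0, with a list median of -0.51. This is not particular to them. Fitted means were also below 0 for all 7 anther and tapetum genes, all 8 tubulins and all 5 plant defensins tested. They were above 0 for all 12 PRA1 and all 9 autophagy genes tested. One fell and 0 rose. All 4 arrays were below 0 for 6 of the 13 with 4 values, against 16.3% of all features. List medians by array were -0.42, -0.87, -0.03 and -0.76. SWEET10 fell, with -1.65, -2.53, -2.54 and -2.49 and a fitted mean of -2.31 ± 0.19 (SE, n = 4). The others did not pass, and SWEET11 was closest to 0, with -0.50, 0.24, 0.23 and -0.31. SWEET13, with -1.32, 0.96, 0.93 and -1.59. SWEET14, with -2.08, -0.23, 0.64 and -2.71, were low on the Cy5 replicates and higher on the Cy3 ones.

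In the nitrate and peptide transporter list, 2 of 10 tested fell and 0 rose, with a median of -0.78. AT3G21670, whose synonym is NPF6.4, had -2.15, -2.68, -3.46 and -2.84 and a fitted mean of -2.78 ± 0.22. AT3G25260, whose synonym is NPF4.1, had -1.15, -0.97, -1.24 and -1.18. Both had all 4 arrays below -0.9. ZIP9, of the family that imports zinc and iron, rose with 1.86, 1.82, 1.82 and 2.10, and its fitted mean was 1.90 ± 0.13. Of 5 tested cation/proton exchangers 0 passed, and CHX20, known from guard cells, had -1.32, -0.92, -1.80 and -1.49 and was lower only in the fit to 12 arrays.

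Other lists had single calls. TET5, 1 of 14 tested tetraspanins, which are membrane organisers, fell with -2.17, -2.31, -2.33 and -2.86 and a fitted mean of -2.42 ± 0.17 (SE, n = 4). TET9 had 1.05, 1.05, 0.76 and 0.93 and was higher only in the fit to 12 arrays. In the list of IQD proteins, which bind calmodulin, iqd33 fell with -1.27, -1.05, -1.02 and -1.41, 1 of 16. UBC31 rose with 0.75, 2.56, 2.87 and 1.36, 1 of 25 tested genes for ubiquitin conjugases and proteases, with values on the Cy3 replicates above those on the Cy5 ones. Outside the lists, RXF26 fell with -1.38, -1.80, -1.44 and -1.95. ZW9 also fell, with -1.87, -1.07, -1.25 and -2.22.

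Genes of cold and drought response had a median above 0, with a single call, which was a fall. Of 18 tested, 0 rose and 1 fell, and the median was 0.56. All 4 arrays were above 0 for 7 of the 17 with 4 values, against 16.0% of all features. The list medians by array were 0.19, 0.29, 1.08 and 0.43, highest on replicate 3. LEA, a dehydrin that protects dried cells, fell with -1.48, -2.03, -1.64 and -2.32. LEA4-5, another late embryogenesis abundant protein, had 1.17, 1.06, 2.42 and 1.81. COR15B, a chloroplast protein of cold-acclimated leaves, had 0.87, 0.47, 2.14 and 1.79. LEA4-5 and COR15B were highest on replicates 3 and 4 and passed only in the fit to 12 arrays. In that fit 4 of 17 were higher and 1 lower, beside 4.21% and 4.87% of all features.

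Photosynthesis and cell division genes did not pass. The photosystem and light-harvesting list had 0 of 19 with a median of -0.07, and chlorophyll synthesis 0 of 9 with -0.39. The 3 Calvin cycle genes tested had fitted means of -1.32 for RCA, which activates Rubisco, -0.77 for PRK and -0.75 for SBPASE. RCA had -1.18, -1.14, -3.01 and 0.05, from far below 0 on replicate 3 to 0 on replicate 4. The list of mitosis and cell division had 0 of 16 and histones 0 of 6. HIS1-3, a linker histone made under drought, had 0.95, 1.94, 2.87 and 1.71 and an adjusted p of 0.0514, and SIM, an inhibitor of cyclin-dependent kinases, had -1.38, -1.43, -0.05 and -1.90. TUB5, a beta-tubulin, had -0.85, -1.08, -1.17 and -1.34. TUB5 and SIM were lower only in the fit to 12 arrays.

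At 4 h the rises of 72 h were mostly small or absent, while many falls were already present. The response at 72 h was set against that at 12 h and at 4 h in a limma fit to all 12 arrays, in which the time points share 1 estimate of the spread. On replicates 1 and 3 of 4 h the values at the limits have the sign opposite to that of the other arrays with the same labelled dye, so the dye labels of those arrays are in doubt. The response at 72 h differed from that at 12 h for 750 features (4.14%), being higher at 72 h for 497 (2.74%) and lower for 253 (1.40%). Against 4 h it differed for 1549 (8.55%), being higher for 902 (4.98%) and lower for 647 (3.57%). For the features that rose at 72 h, the median earlier mean was 0.03 at 4 h and 0.48 at 12 h. For those that fell it was -0.78 at 4 h and -1.44 at 12 h. Of the rising features measured, 79 of 147 had a mean above 0 at 4 h and 131 of 153 at 12 h. Of the falling features, 205 of 224 had a mean below 0 at 4 h and 207 of 223 at 12 h. These features were chosen by their 72 h values, so that a larger response at 72 h is in part set by the choice, and the counts among them are given as a description. Of the 145 rising features that could be compared, 80 were also higher than at 12 h and 113 higher than at 4 h. Of the 222 falling features, 51 were also lower than at 12 h and 115 lower than at 4 h.

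PUP18 changed sign over time. It averaged -1.18 at 4 h, -1.55 at 12 h and 1.88 at 72 h, and the difference of 72 h minus 12 h was 3.43 ± 0.19 (SE, limma adjusted p = 5.04e-05). EC1.1 was near 0 at the earlier times, with -0.10 at 4 h, 0.03 at 12 h and 1.78 at 72 h, and ARL likewise, with 0.38 at 4 h, 0.30 at 12 h and 2.42 at 72 h. In contrast tny had 0.56 at 4 h, 2.42 at 12 h and 2.30 at 72 h, and its difference between 72 h and 12 h did not pass (adjusted p = 0.783). AT2G38380 had 0.49 at 4 h, 3.85 at 12 h and 3.89 at 72 h. Both genes were thus close to their 72 h mean by 12 h.

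Among the falls, BGLU33 and LEA were near 0 at both earlier times. BGLU33 had 0.02 at 4 h, -0.35 at 12 h and -2.5 at 72 h, and LEA had 0.04 at 4 h, 0.07 at 12 h and -1.87 at 72 h. CYP71B23 was already low, with -2.55 at 4 h, -2.29 at 12 h and -2.38 at 72 h, and AT2G30540 had -4.79 at 4 h, -3.67 at 12 h and -4.08 at 72 h. Neither of their differences passed. Another course, low by 12 h but not at 4 h, was seen in scpl31, with 0.23 at 4 h, -1.75 at 12 h and -1.78 at 72 h. BGLU44 had -1.6 at 4 h, -2.75 at 12 h and -1.82 at 72 h, so that its fall at 72 h was smaller than at 12 h (limma adjusted p = 0.0316). XTH33 had 0.32 at 4 h, -0.40 at 12 h and 1.25 at 72 h, and its 72 h response was higher than at 12 h (adjusted p = 0.000562).

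**Figure D4:**
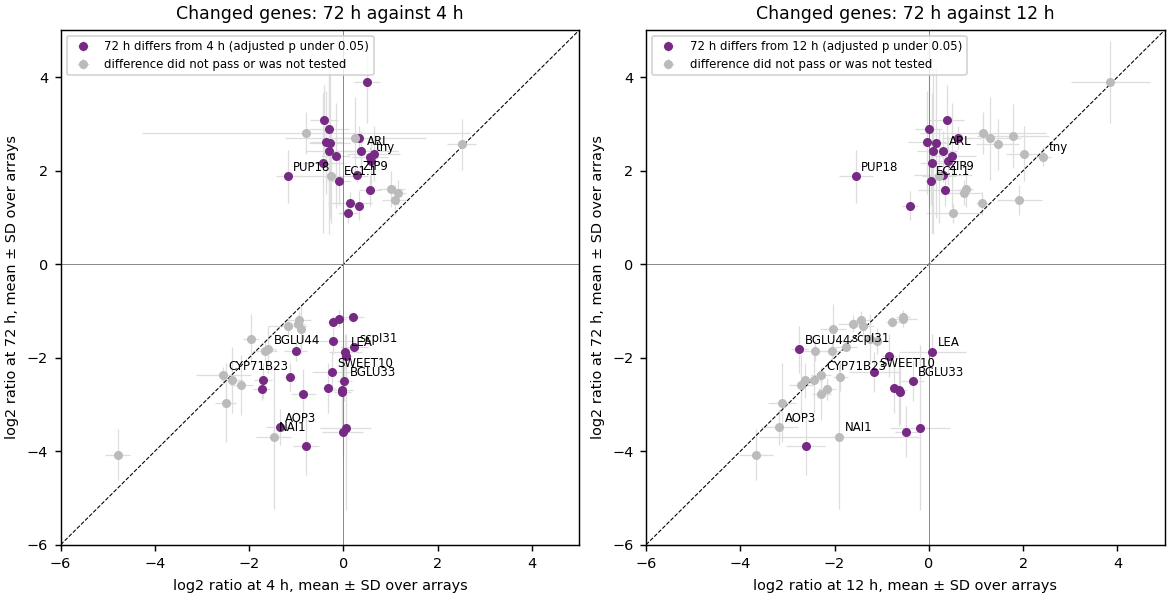
Mean log2 ratio of Dex over mock at 72 h against the mean at 4 h (left) and at 12 h (right) for the named genes, with bars for the SD over arrays and a dashed line where both are equal. Purple points differ between the time points in the limma fit to 12 arrays, and grey points did not pass or were not tested. PUP18 lies at upper left in both panels, with -1.18 at 4 h, -1.55 at 12 h and 1.88 at 72 h.

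The size of several rises differed between the dye orders. Of the 156 rising features, 35 had a dye coefficient below -0.5, which means ratios on the Cy3 replicates 2 and 3 above those on the Cy5 replicates 1 and 4 by more than 1 log2 unit. One rising feature had a coefficient above 0.5. Of the 228 falling features, 7 and 12 were past these limits. A coefficient past 0.5 in either direction was seen in 14.3% of the called features and 11.8% of all. These shares pool rises with falls and both signs, so they do not show the skew among the rises. The share of all features with a coefficient below -0.5 was not counted, so the 35 of 156 have no background beside them. AT1G13670 had 0.43, 3.99, 3.82 and 1.43, a gap of -2.97 for Cy5 minus Cy3, and AT3G01230 had 1.27, 4.68, 3.93 and 1.70. All 8 values are above 0, with replicates 2 and 3 the higher. The fitted mean weights both dye orders equally. Without the dye term 8 of the 62 called genes described here did not pass, namely AT3G01230, AT1G11765, AT1G13670, ARPN, RALFL25, UBC31, AT2G32870 and NAI1.

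**Figure D5:**
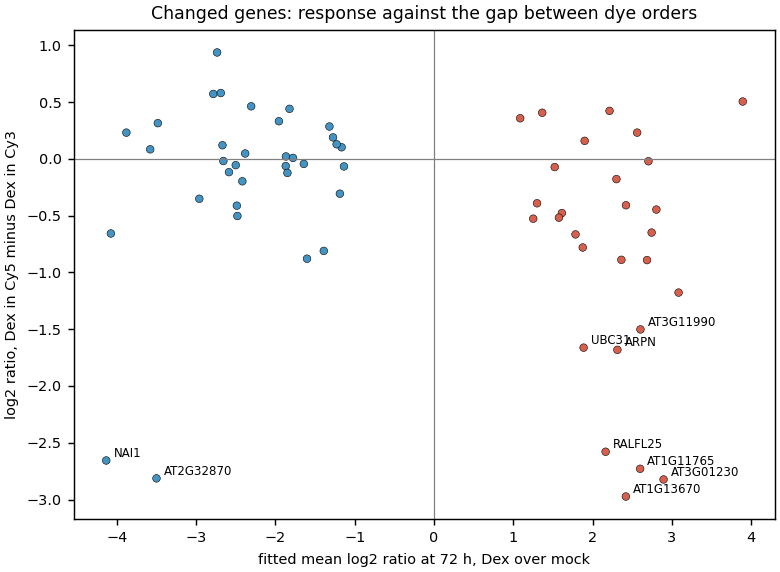
Gap between the dye orders, as log2 ratio with Dex RNA in Cy5 minus that with Dex RNA in Cy3, against the fitted mean log2 ratio of Dex over mock at 72 h, with 1 point per named gene. Red points rose and blue points fell. RALFL25, AT1G11765, AT3G01230 and AT1G13670 lie below -2.5 at the lower right, and AT2G32870 and NAI1 at the lower left.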

How the data were processed

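The authors deposited log2 ratios of the channels of each array. Amplified RNA made by in vitro transcription was dye-coupled, per the labels' protocols. Their background correction and normalization are not described in the labels or file headers. Of 26540 rows, 450 controls and blanks were left out. The number of columns without a sample was 0. Probes were named through the platform annotation and the TAIR10.1 gene table: of 26090 gene probes, 12130 lack a name, 13960 carry a single one and 0 carry several, and the IDs of 13912 matched.

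Values at the limits were set missing, probes of a locus averaged and arrays centred on their median. limma 3.58.1 (R 4.3.3) was fitted to the 4 arrays with an intercept and a dye term, two-sided, with Benjamini-Hochberg adjustment over all features with at least 3 values and a threshold of 0.05. On simulated data, 53 of 100 planted changes of 1.5 and 78 of 100 of 3 on the log2 scale were recovered among 18552 features. There were 8 false calls. The simulated noise was drawn independently for each gene and array, so recovery on the real arrays may differ. Its SD came from values with the fitted dye effect removed, without allowance for that fit. The simulated noise was therefore too small, which favours recovery. Precision is limited by the 4 arrays, and signal over background is unknown.

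The genes named are the 15 largest rises and the 15 largest falls among named genes called with 1 sign on all arrays, and up to 3 called members each way per list. Other called genes with a symbol, and list members that did not pass, were chosen after their values were seen. The genes, the lists and the tests were chosen with earlier results of these data known. Lists were built from gene symbols and their synonyms, so families are incomplete in them. Same-numbered arrays of different times correlated in their deviations at -0.29 to 0.32, and other pairs at -0.33 to 0.30. The dye was not removed from these deviations, so they do not show whether the numbers pair the samples.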

Additional observations from a re-analysis of the deposited data

Results flagged for a closer look

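Single arrays stood far from the other 3 for 6 of 62 genes checked. The array was replicate 1, and closer to 0 than the others, for AT5G46060 (1.73), AOP3 (-2.90), SWEET10 (-1.65) and REM22 (-1.05). It was replicate 3 for tny (2.62) and replicate 4 for ZIP9 (2.10), each the highest. The gap to the nearest array divided by the range was above Dixon's critical value of 0.83 for 4 samples, which chance exceeds in about 1 of 20 groups.

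For the 55 genes named by rule, the response at 72 h differed from that at an earlier time in the limma fit to 12 arrays in 58 comparisons. Each value below is the log2 response at 72 h minus that at the earlier time. The differences from 12 h and from 4 h were 2.71 and 3.50 for AT3G09950, 2.90 and 3.21 for AT3G01230, 2.10 and 2.38 for AT4G16880, 2.65 and 2.98 for AT3G11990 and 2.44 and 2.90 for AT1G11765. From 12 h and from 4 h they were 2.12 and 2.04 for ARL, 2.34 and 2.72 for AT1G13670, 1.82 and 2.48 for ARPN, -1.26 and -3.09 for AT4G23670 and -3.10 and -3.56 for AT1G68230. The differences from 12 h and from 4 h were -3.31 and -3.54 for AT2G32870, -2.13 and -2.71 for AT3G05620, -2.06 and -2.65 for AT3G18260, -1.91 and -2.33 for AT3G17380 and -2.15 and -2.51 for BGLU33. From 12 h and from 4 h they were 1.75 and 1.88 for EC1.1, 2.10 and 2.59 for RALFL25, 1.65 and 0.93 for XTH33, 1.24 and 1.01 for XTH19 and -1.15 and -2.05 for SWEET10. The differences from 12 h and from 4 h were 3.43 and 3.06 for PUP18 and -1.94 and -1.91 for LEA. Against 4 h alone the difference was 3.40 for AT2G38380, 1.73 for MPC, 1.74 for tny, -2.13 for AOP3, -1.93 for AT3G21670, -0.93 for AT4G29700 and -0.77 for AT2G01990. Against 4 h alone the difference was -1.07 for EXPA24, 1.17 for PMEPCRF, 0.99 for CYP71B26, -2.0 for scpl31, -1.33 for AT3G25260 and -1.28 for TET5. Against 12 h alone it was 0.93 for BGLU44. Other called genes with a symbol also passed: 72 h minus 12 h and 72 h minus 4 h were 1.81 and 1.64 for LUP5, -1.11 and -2.01 for ICL and 1.6 and 1.62 for ZIP9. Against 4 h alone they were -1.43 for RXF26, -0.84 for CHAT and -1.0 for REM22. Positive values mean a higher ratio at 72 h. The genes were chosen by their 72 h values, which in part sets the sign of these differences.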

How the results depend on the processing

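None of the calls at 72 h changed sign under any alternative run, but their number did. The smallest call was 1.05 on the log2 scale, and several runs leave the estimates unchanged, so the lack of sign changes says little. Against 384, limma called 3758 with 1 spread shared by 12 arrays, 1646 with 1 variance per time point, 837 without the dye term, 684 after quantile normalisation and 772 among features with 4 values. It called 0 with array weights among the 72 h arrays, with limit values kept, with equal median absolute deviations, with named genes only and at an adjusted p under 0.01, where 3298, 3180, 4072, 1858 and 3556 features had an unadjusted p under 0.05. Leaving out 1 array gave 271 to 2962 calls: 271 without replicate 1, 2962 without replicate 2, 1903 without replicate 3 and 436 without replicate 4. Of the calls made with all 4 arrays, 186 of 381 were kept without replicate 1, 382 of 382 without replicate 2, 379 of 379 without replicate 3 and 243 of 382 without replicate 4. Of the called genes described here, 15 of 61 were lost without replicate 1, 11 of 62 without replicate 4 and 8 of 62 without the dye term. Higher calls made up 62.3% without replicate 2 and 32.6% without replicate 3, against 40.6% with all 4.

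The difference of 72 h minus 12 h had 750 calls, against 327 with the 8 arrays alone, 426 with weights by time point, 236 with limit values kept and 304 to 810 when a 72 h array was left out, the lowest without replicate 4. For 72 h minus 4 h there were 1549, against 592, 771 and 873 in the same 3 settings and 1034 to 1685 when an array was left out, again the lowest without replicate 4. With the replicate number as a block, 3073 features were called at 72 h, 327 for 72 h minus 12 h and 1010 for 72 h minus 4 h. The cause of these changes was not tested. Of the 58 differences given for the genes named by rule, 15 were lost after quantile normalisation, 13 with limit values kept, 10 with the 8 arrays alone, 10 with the block and 7 with weights by time point. For AT4G23670 the difference of 72 h minus 12 h was -0.36 after quantile normalisation, against -1.26. With the dye taken from the sign of the limit values, chosen after seeing the data, the differences had 1037 and 1911 calls.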

Other observations

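Some probes sat at a limit with 1 sign on 3 arrays of 72 h and were outside the test for that reason. AT5G53440 was at the upper limit on replicates 1, 2 and 3 and had no value on replicate 4. AT3G47180 was at the lower limit on replicates 1, 2 and 3 and at -2.90 on replicate 4. AT3G14250 was at the upper limit on replicates 1, 2 and 4 and at 0.12 on replicate 3, and AT5G41590 was at the upper limit on the same 3 and at -0.97 on replicate 3. In all, 4726 probes were at a limit on at least 1 array of 72 h, and 3401 of them were at limits of both signs.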
